A study of Drosophila melanogaster with 2 samples.

Results

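Translation initiation and elongation factor genes are described here by where a tagged zinc finger protein was found near their start sites. The members are the 51 protein-coding genes, of 13945 on the main chromosome arms, whose symbol in the Ensembl annotation begins with eIF or eEF and a digit, a rule that uses the symbol alone. Whole Drosophila melanogaster pupae aged 1 day, of the strain CG12605-GFP, carried an insertion for a fusion of CG12605 with eGFP, and their chromatin was immunoprecipitated with an antibody against GFP. CG12605 encodes a zinc finger protein related to Snail and Scratch. The 2 libraries are biological replicates of this single group, so no condition could be compared. The sources used here do not name what drives the fusion or which cells hold it, and whole pupae mix all tissues. A gene is called bound where the summit of a peak fell no more than 1000 bp from one of its annotated start sites, on either side.

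Initiation factors bring the small ribosomal subunit, the initiator tRNA and the mRNA together. eIF2 carries the initiator tRNA, eIF2B recharges eIF2 with GTP, eIF3 holds the small subunit ready, and the eIF4 factors recognise and unwind the capped end of the mRNA. eIF5, eIF5B and eIF6 act around subunit joining. Elongation factors then deliver each aminoacyl-tRNA and move the ribosome along. All growing cells need these proteins, and several fly factors have a second gene copy with narrower use.

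In the authors' conservative list of 6776 peaks, 15 of the 51 genes (29.4%) were bound, where 23.1% of all protein-coding genes were. The bound genes were eIF1, eIF1A, eIF2A, eIF2D, eIF2alpha, eIF2Bbeta, eIF3h, eIF4G2, eIF4H1, eIF5B, eIF6, eEF1alpha1, eEF1gamma, eEF2 and eEF5. The share differed between the roles. Elongation factor genes were bound at 4 of 7, genes of eIF2 with eIF2A and eIF2D at 3 of 5, and both scanning factor genes, eIF1 and eIF1A, were bound. Of the 16 genes for eIF3 subunits 1 was bound, of the 5 for eIF2B subunits 1, and of the 7 in the eIF4E cap-binding family 0. Single replicates moved these counts. In the thresholded lists of replicate 1 and replicate 2, the counts were 1 and 2 for eIF2 with eIF2A and eIF2D, 1 and 2 for the scanning factors, 2 and 3 for eIF3, 0 and 1 for the eIF4E family, and 3 and 4 for the elongation factors. The genes of eIF4A, eIF4B, eIF4G and eIF4H had 2 bound in the conservative list and 1 in each replicate. These groups are small and no difference between them was tested.

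Most of these peaks were of ordinary height. Signal is the authors' value for each peak, it is used only within a list, and no source used here states how it was scaled. The highest peak of each bound gene had a median signal of 104.6, against 98.1 over all 3223 bound genes. The middle of the 15 values ran from 88.9 to 117.3 between quartiles, against 71.3 to 153.6 over all bound genes. Only eIF2Bbeta, at 1369, and eIF6, at 656, stood above 134. Both rank among the 52 highest of the conservative peaks, and the third, eEF1gamma, has rank 1582.

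**Figure D1:**
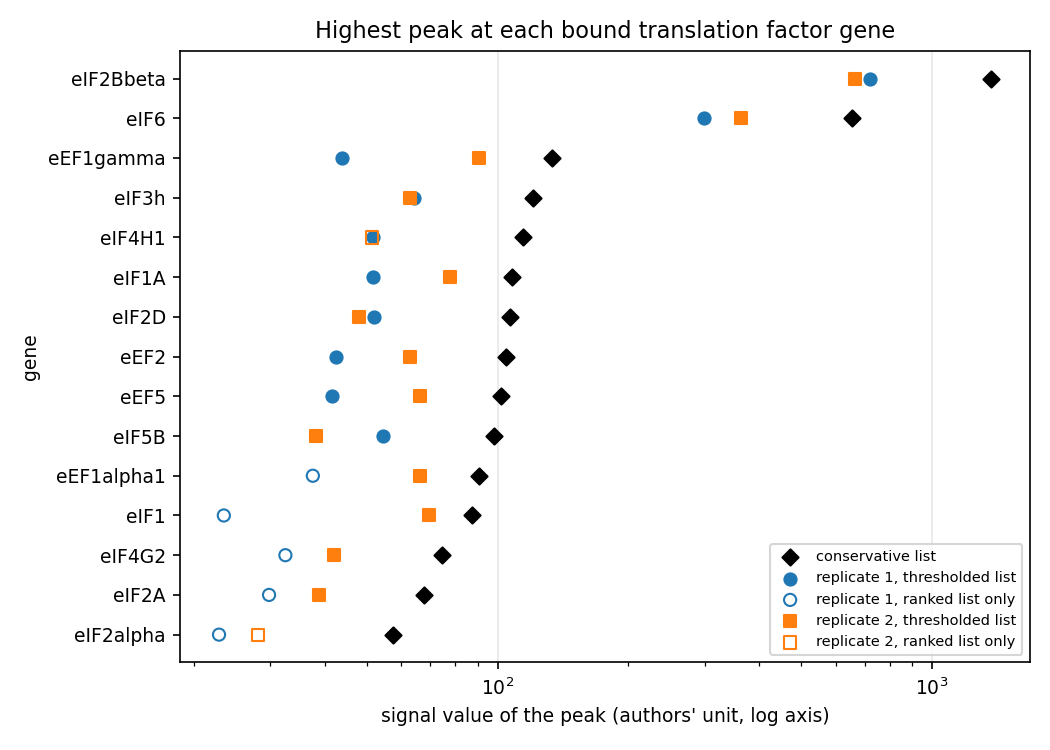
Signal of the highest conservative peak at each of the 15 bound genes (black diamonds) with the signal of the summit within 100 bp in each replicate's own ranked list (circles, replicate 1; squares, replicate 2), on a log axis. Filled symbols are peaks of a replicate's thresholded list. eIF2Bbeta and eIF6 lie apart from the other 13 genes, whose conservative signals run from 57.4 to 133.8.

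The DNA under these summits is shown for the genes with the highest peaks, to let the reader see what sequence the signal sat on. RefSeq's copy of the Release 6 assembly (dm6 coordinates) is printed on the strand of the named gene, 5′ to 3′. Each stretch holds the summit with 50 bases on either side, or the part of that window outside annotated UTRs. At eEF1gamma that part ends before the summit. Capitals mark matches, on either strand, to the 8 motifs described further on.
eIF2Bbeta, chrX:2703853-2703931, plus strand, outside genes: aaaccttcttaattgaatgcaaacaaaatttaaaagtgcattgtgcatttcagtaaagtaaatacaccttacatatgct
eEF1gamma, chr3R:29220128-29220171, plus strand, up to the base before the start site: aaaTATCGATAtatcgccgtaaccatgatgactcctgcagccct
eIF3h, chr2L:5052416-5052516, minus strand, intron: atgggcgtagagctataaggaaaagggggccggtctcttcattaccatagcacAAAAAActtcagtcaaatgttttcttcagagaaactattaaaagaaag
eIF4H1, chrX:16448835-16448935, plus strand, intron: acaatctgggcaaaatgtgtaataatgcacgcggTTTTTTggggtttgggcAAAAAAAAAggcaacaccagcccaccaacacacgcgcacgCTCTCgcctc
eIF1A, chr3R:18275554-18275654, plus strand, intron: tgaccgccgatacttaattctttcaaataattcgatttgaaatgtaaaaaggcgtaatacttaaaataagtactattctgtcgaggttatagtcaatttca
eIF2D, chr3R:29151849-29151949, minus strand, outside genes: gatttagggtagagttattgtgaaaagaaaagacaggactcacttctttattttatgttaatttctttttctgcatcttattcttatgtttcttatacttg
The printed stretches hold 27.8% G and C at eIF2Bbeta, 27.7% at eIF2D and 29.7% at eIF1A, against 45.5% at eEF1gamma and 50.5% at eIF4H1. With the UTR bases included, the full windows hold 33.7% at eIF2Bbeta and 50.5% at eEF1gamma. The window of eEF2 lies within annotated UTRs and is not printed.

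eIF2B is the exchange factor that is inhibited when stress kinases phosphorylate eIF2, and eIF2Bbeta encodes one of its regulatory subunits. The gene (FBgn0024996, X, 2704571 to 2706217, plus strand) was bound by the highest peak of the whole list, with 719 in replicate 1 and 667 in replicate 2. The summit lay 690 bp upstream of eIF2Bbeta and only 29 bp from the start site of Ugalt, a sugar nucleotide transporter gene read in the other direction. The peak was narrow, 298 bp, where 360 bp was the median width at bound genes. It cannot be given to either gene, and counting each summit for the nearest gene alone removed eIF2Bbeta from the bound set. The other 4 subunit genes had no conservative summit within 1000 bp. eIF2Bgamma had a ranked-list peak of 48.0 at 10 bp upstream with a reproducibility score of 737, under the 830 that corresponds to the authors' limit. The catalytic subunit gene eIF2Bepsilon had 28.7, eIF2Bdelta had 44.4 at 711 bp upstream, and eIF2Balpha had no peak in the 3 ranked lists searched, those of each replicate and of the conservative pair.

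eIF2alpha encodes the subunit that the stress kinases phosphorylate. Its peak, 70 bp upstream, had a signal of 57.4 and a score of 834, the lowest of the 15 in both values. Replicate 1 gave it 22.8 and replicate 2 gave it 28.1, and it was in neither replicate's own thresholded list. The next gene, eIF4H1, starts 1672 bp away and was also bound. eIF2D, which can place initiator tRNA outside the main route in mammalian extracts, had 106.9 at 105 bp upstream, with 52.0 in replicate 1 and 48.0 in replicate 2. A weaker conservative summit of 13.2 lay 340 bp upstream of it, in a UTR exon of Slbp, and had no summit of either replicate within 100 bp. eIF2A had 67.7 at 32 bp upstream of an internal start site, inside the gene, with 29.8 in replicate 1 and 38.8 in replicate 2. The remaining subunit genes were unbound: eIF2beta had a ranked-list peak of 28.7, and eIF2gamma had 16.6 in replicate 2 and, with a score of 69, 30.1 in the ranked list of the other series-level pair.

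eIF1 and eIF1A help the small subunit scan for the start codon. The summit at eIF1 had a signal of 87.3 and lay 334 bp upstream, but 47 bp from the start site of RpL28, a ribosomal protein gene. Its replicates differed most among the 15, with 23.4 in replicate 1 and 69.4 in replicate 2, a ratio of 2.96. At eIF1A the summit, 108.0, lay 906 bp downstream in an intron, the farthest of the 15, and the peak was 90 bp wide. Replicate 1 gave 51.5 and replicate 2 gave 77.8. With a limit of 500 bp, eIF1A and eIF2Bbeta were the 2 genes lost.

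The eIF3 genes had few conservative summits. In the ranked list of the conservative pair 10 of the 16 had a peak, where 60.2% of all genes did. The bound gene was eIF3h, and its summit of 120.4 lay in an intron 314 bp downstream of the start site and 377 bp from that of senju. The replicates were close, with 64.3 in replicate 1 and 62.9 in replicate 2. In the authors' other series-level thresholded list, where 23.6% of all genes were bound, 18 members were bound. Those gained were eIF3a (53.9), eIF3e (53.4) and eIF2Bgamma (48.0), all with lower scores in the conservative pair. eIF3j had 44.9 in the thresholded list of replicate 1, with no peak within 1000 bp in the ranked list of replicate 2. eIF3m had 31.3 in the list of replicate 2, against 8.86 for its highest ranked peak in replicate 1. The pairs eIF3d1 and eIF3d2, eIF3f1 and eIF3f2, and eIF3g1 and eIF3g2, each a gene and a related copy, had no summit in any of the 4 thresholded lists. The nearest conservative summits outside the limit belonged to eIF3d1, at 1294 bp with 94.2, and eIF3g1, at 1352 bp with 117.8.

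Among the helicase and scaffold genes, eIF4H1 and eIF4G2 were bound. eIF4H1 encodes a helicase cofactor, and its summit of 114.2 lay 220 bp downstream in an intron. Replicate 1 gave 51.7 and replicate 2 gave 51.5, yet the score was 1000 in replicate 1 and 137 in replicate 2, so it was in the first thresholded list only. eIF4G2 is a copy of the eIF4G scaffold gene known for its use in the male germ line. It had 74.4 at 205 bp downstream, with 32.5 in replicate 1 and 42.0 in replicate 2, at equal distance from the start site of CG33111. The related genes eIF4G1 and eIF4H2 had no conservative peak. eIF4G1 is the only member on chromosome 4, where 2.50% of all genes were bound. eIF4B, another helicase cofactor, lies near the centromere end of 3L (27842669 to 27858271), and its nearest conservative summit was 4979375 bp away. That summit, at 22878896, is the last on the arm, and 45 genes start beyond it. By definition the stretch beyond it holds no conservative summit, while the ranked list of the conservative pair held 39 peaks there. Whether reads could be placed there was not tested.

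Both eIF4A and eIF4EHP had peaks that met the authors' IDR limit in the ranked list and were absent from the conservative list. eIF4EHP (FBgn0053100, 3R, 24063077 to 24108960, minus strand) encodes a cap-binding protein that blocks translation, for example of caudal mRNA in the fly embryo. Its ranked-list peak had a signal of 414 at 230 bp upstream, above 97.6% of the conservative peaks. Replicate 1 gave 215 and replicate 2 gave 196, both at the highest score of 1000, but only the thresholded list of replicate 2 held it. The window shown here is that summit's, chosen after its values were seen, with matches to TATAAA in capitals, at 19.8% G and C.
eIF4EHP, chr3R:24109140-24109240, minus strand, outside genes: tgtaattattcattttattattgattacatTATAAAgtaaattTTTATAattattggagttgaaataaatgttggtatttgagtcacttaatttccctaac
The start site of CG18428 lies within 1000 bp of it as well.

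eIF4A, the helicase that opens mRNA leaders, had a ranked peak of 99.4 at 814 bp upstream, in a UTR exon of chic, the profilin gene. It gave 47.8 in replicate 1 and 44.1 in replicate 2. Another peak, of 66.1, lay 78 bp downstream of a start site and had a summit within 100 bp in replicate 2 (49.4) but none in replicate 1. A peak of 25.7 lay 48 bp downstream of a start site, with such a summit in replicate 1 (39.1) but none in replicate 2. All 3 had a score of 1000 in the conservative pair's ranked list, and eIF4A was in none of the 4 thresholded lists. In all, 181 peaks of that ranked list met the IDR limit of 0.01 (IDR, the irreproducible discovery rate) and were absent from the conservative list. Putting them back gave 17 bound members, with 23.7% of all genes bound. Per the deposited text the thresholded lists had a further input file, not analysed here, and whether it removed these peaks was not tested.

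**Figure D2:**
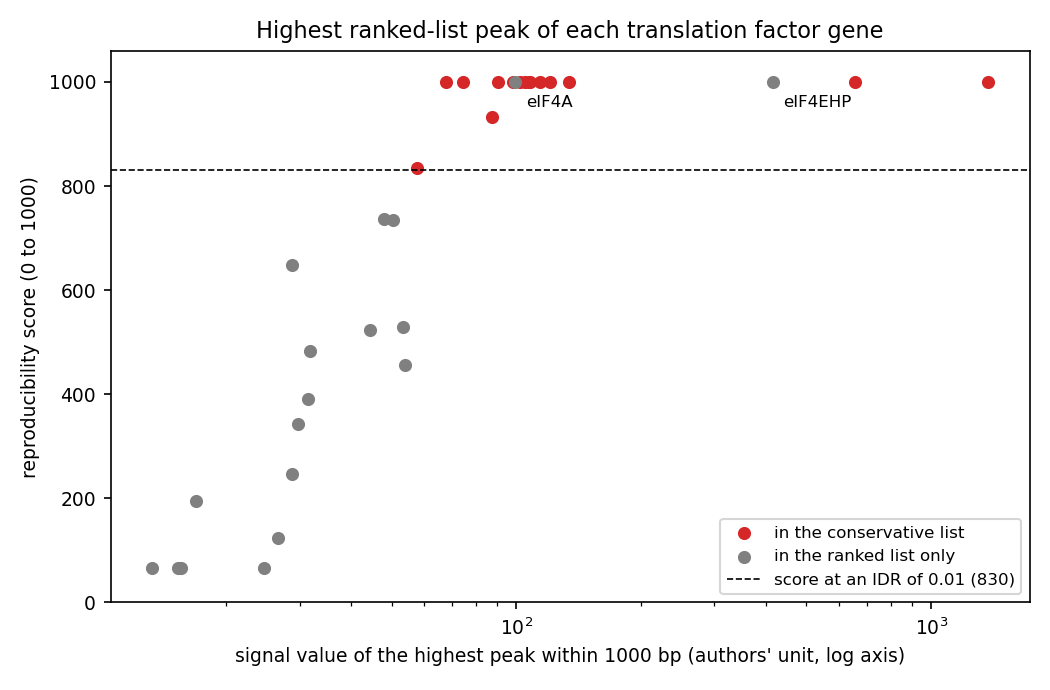
Signal of the highest peak within 1000 bp of a start site (x, log axis) against its reproducibility score (y, from the IDR), for the 33 members with a peak in the ranked list of the conservative pair. Red points are in the conservative list, grey points are not, and eIF4A and eIF4EHP are the grey points above the dashed line at 830.

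The other cap-binding genes had little. eIF4E1, the main cap-binding factor, had a ranked-list peak of 50.4 at 165 bp downstream with a score of 734. eIF4E3, known from the testis, had 16.9, eIF4E6 had 24.8 in replicate 2 alone, and eIF4E7 had 6.29 there. eIF4E4 and eIF4E5 had no peak in the 3 ranked lists. Over all members, 33 of 51 had a summit in the ranked list of the conservative pair, where 60.2% of all genes did. Of the 30 members in none of the 4 thresholded lists, 9 had no peak in those 3 ranked lists either: eEF1beta, eEF1delta, eIF2Balpha, eIF3d2, eIF4B, eIF4E4, eIF4E5, eIF4G1 and eIF5. No share of all genes was set beside these counts.

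Around subunit joining, eIF6 and eIF5B were bound and eIF5 was not. eIF6 binds the large subunit and keeps it from joining too early. Its peak (2R, summit 23850405) had a signal of 656 at 104 bp upstream, with 298 in replicate 1 and 363 in replicate 2. It was 234 bp wide and lay in an intron of ytr, whose start site was 668 bp away. eIF5B, a GTPase for joining, had 97.9 at 125 bp upstream of one of its start sites, with 54.4 in replicate 1 and 38.2 in replicate 2. At that summit eIF5B had the lowest ratio of replicate 2 to replicate 1 among the bound genes, at 0.702. The highest peak of replicate 2 within 1000 bp was another, of 56.6 at 840 bp upstream. The same gene (3L, 3428658 to 3460977, minus strand) held 5 further conservative peaks in its introns, between 16206 and 27722 bp downstream, with signals from 30.3 to 83.3. eIF4EHP, the longest member, held 1 intronic peak, of 129.9 at 9815 bp downstream.

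In the conservative list, all 4 bound elongation factor genes had their highest summit within 27 bp of a start site. Single replicates differed, and the highest summit of eEF5 lay 50 bp away in replicate 1 and 57 bp in replicate 2. That of eEF1alpha1 lay 82 bp away in the ranked list of replicate 1 and 4 bp in replicate 2. At eEF1gamma and eEF2 it stayed within 7 bp in both. eEF1alpha1, whose protein carries aminoacyl-tRNA to the ribosome, had 90.4 at 3 bp upstream, with 37.6 in replicate 1 and 66.4 in replicate 2. eEF1gamma, a part of the exchange complex for that GTPase, had 133.8 at 6 bp downstream, with 43.8 in replicate 1 and 90.8 in replicate 2. eEF2, which moves the ribosome by a codon, had 104.6 at 6 bp downstream, with 42.4 in replicate 1 and 62.8 in replicate 2. eEF5, the fly name for the hypusine-carrying factor eIF5A, had 102.03 at 27 bp downstream, with 41.6 in replicate 1 and 66.4 in replicate 2. At no bound initiation factor gene did the highest conservative summit lie within 30 bp. In that list the elongation factors make up the 4 of 15 (26.7%) that did. The share was 9.0% of all bound genes and 55.2% of the bound cytoplasmic ribosomal protein genes. The limit of 30 bp fell between eEF5, at 27 bp, and the nearest initiation factor summit, at eIF2A, only just outside at 32 bp. These distances are to the nearest annotated start site, which was an internal one at 3 of the 4 genes. Each of the 4 has several annotated start sites, as do 39.2% of the members and 26.5% of all genes. The part of this in the shares was not tested. From the outermost start site the summit lay 6 bp away at eEF1gamma, 54 bp at eEF2, 82 bp at eEF5 and 984 bp at eEF1alpha1, in an intron of that gene. eEF1alpha1 had 4 conservative summits within 1000 bp, the others being 64.2, 57.3 and 43.9, and the last 2 lay nearer to the start site of ERp60. The unbound members of this group were eEF1alpha2, the second gene for the same GTPase, with a ranked peak of 29.7 at 414 bp upstream, and the exchange factor genes eEF1beta and eEF1delta.

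Over the 15 genes, the median position of the summit from the nearest start site was 3 bp upstream, against 118 bp upstream for all bound genes. With upstream positions negative, it was -68.5 bp for the members bound in replicate 2, 2 bp for those bound in replicate 1, and -104 bp with a limit of 2000 bp. A distance of at most 200 bp from the start site was found for 9 of the 15 (60.0%), against 53.6% over all bound genes. Upstream of the nearest start site lay 8 (53.3%), against 71.0%. Of these, the summits at eIF2A, eIF5B and eEF1alpha1 lay inside the gene, upstream of an internal start site only. From the outermost start site they were 193, 249 and 984 bp away. The start site of another gene was within 1000 bp at 8 of the 15 (53.3%, against 48.8%). It was nearer than the member's own at 2, eIF1 and eIF2Bbeta. Median G and C in the window of 50 bases on either side of the summit was 47.5%, against 39.6% over all bound genes. It was 33.7% at eIF2Bbeta and 35.6% at eIF6, the pair with the highest signals, and between 39.6% and 52.5% at the 4 elongation factor genes.

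**Figure D3:**
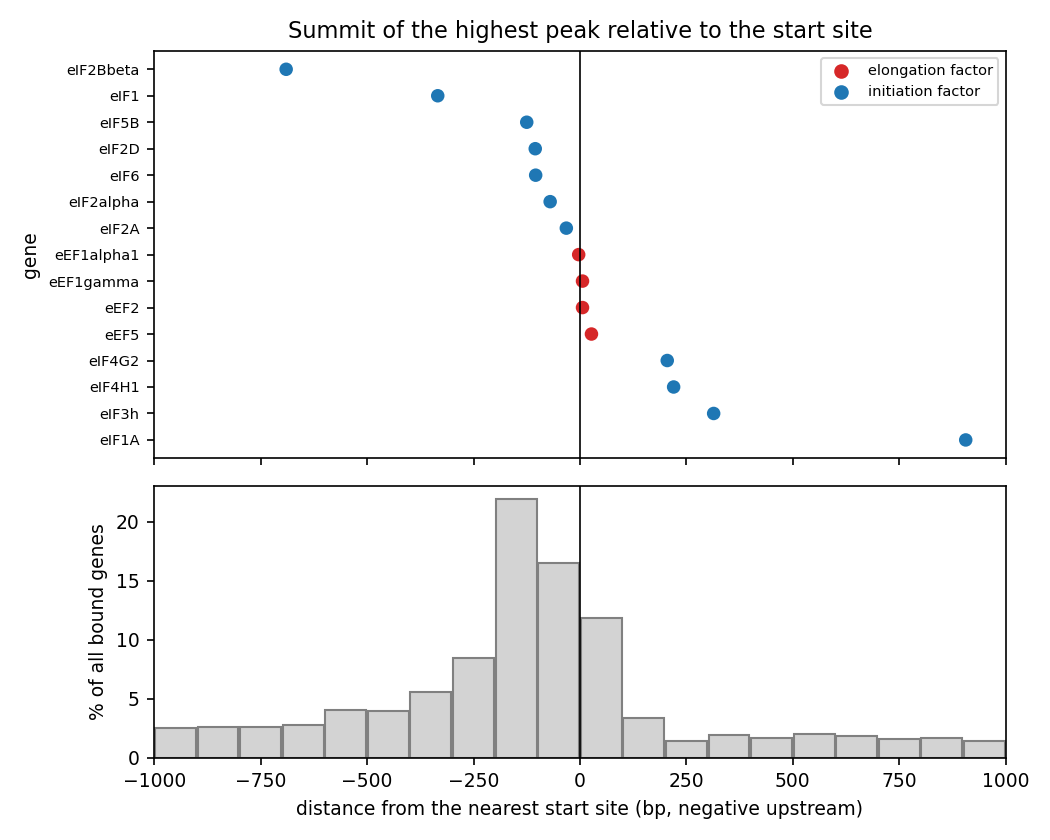
Distance of the highest summit from the nearest start site, in bp and negative upstream, for each of the 15 bound genes (top; red, elongation factors; blue, initiation factors), and as a percentage of all 3223 bound genes in bins of 100 bp (bottom). In the conservative list, shown here, the 4 elongation factor summits lie within 27 bp of an annotated start site. The initiation factor summits spread from 690 bp upstream to 906 bp downstream.

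The replicates' own thresholded lists held fewer of these genes in common. Replicate 1 had 11 members bound, where 15.8% of all genes were bound in that list, and replicate 2 had 16, where 19.3% were. Of the 15 conservative members, 9 (60.0%) were bound in both lists, against 56.9% of all bound genes. eEF1alpha1, eIF1, eIF2A and eIF4G2 were bound in replicate 2 and not in replicate 1, and eIF4H1 the other way round. At the summits, replicate 2 gave a higher signal than replicate 1 at 10 of 15 (66.7%), against 72.1% of 5991 conservative peaks with a summit of both within 100 bp. The median ratio was 1.29, against 1.19 over those peaks. The ratio was 1.48 at eEF2, 1.60 at eEF5, 1.77 at eEF1alpha1 and 2.07 at eEF1gamma, where the central 80% of those peaks ran from 0.799 to 1.79. The read depth of each library is unknown, and its part in these ratios was not tested. The conservative signal was close to the sum of both replicates' values, at a median of 0.992 of that sum.

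**Figure D4:**
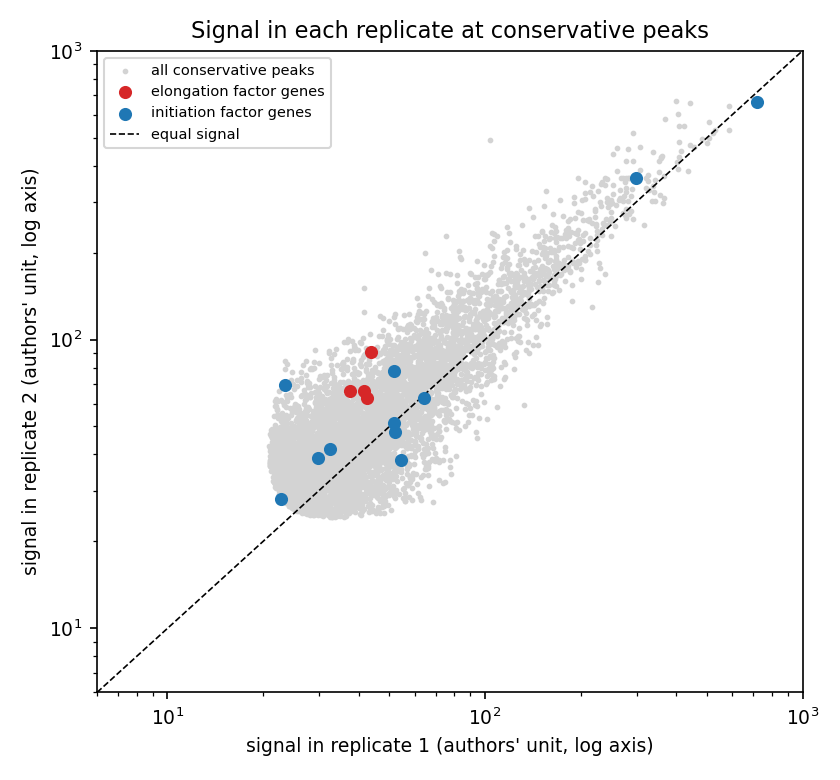
Signal in replicate 1 (x) and replicate 2 (y), both on log axes, at 5991 conservative peaks (grey) and at the highest peak of the 4 elongation (red) and 11 initiation (blue) factor genes. The dashed line marks equal signal. Above it lie 10 of the 15 genes, the 4 elongation factor genes among them, and 72.1% of the 5991 peaks.

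The promoter windows were searched for 8 motifs on both strands, over 300 bases from 250 before the outermost start site to 50 from it on. TATAAA is the TATA box, GAGAG the site of GAGA factor and GGTCACACT the core of a promoter element of many fly genes. CACGTG is a palindromic E-box and AAAAAA a run of one base. CAACAGGTG is the E-box of Scratch proteins, and CACCTG is a short E-box that it holds on the other strand. TATCGATA, the sequence read by the factor DREF at many fly housekeeping promoters, was in 14 of 51 windows (27.5%), against 9.36% of all 13945. It was in 5 of the 15 bound members (33.3%) and 9 of the 36 unbound ones (25%), against 10.7% of all bound and 8.95% of all unbound genes. GAGAG went the other way, with 15.7% of the members against 29.7% of all windows. TATAAA was in 45.1% against 45.8%, AAAAAA in 52.9% against 50.4%, GGTCACACT in 5.88% against 6.05%, CACGTG in 7.84% against 4.20% and CACCTG in 11.8% against 9.32%. CAACAGGTG was in 0 of 51, where 0.409% of all windows had it. None of these shares was tested.

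**Figure D5:**
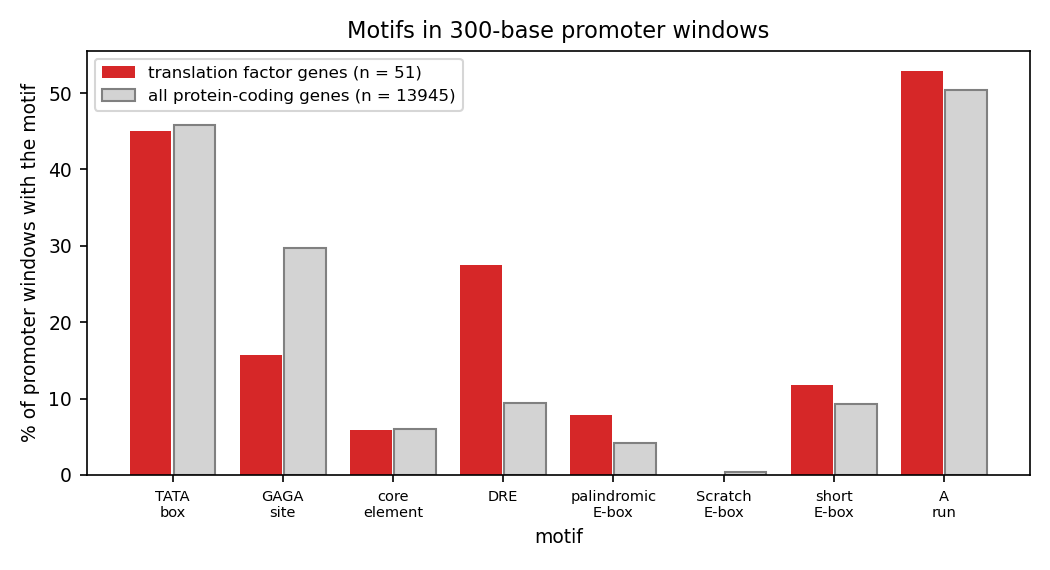
Percentage of 300-base promoter windows that hold each motif on either strand, for the 51 translation factor genes (red) and all 13945 protein-coding genes (grey). The bars differ most for the DRE, which stands for TATCGATA (27.5% against 9.36%), and the GAGA site, GAGAG (15.7% against 29.7%).

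The 14 genes held 16 copies of TATCGATA, of which 13 (81.2%) began within 100 bp upstream of the outermost start site, against 67.9% of all 1449 copies. Of the 9 copies whose surroundings lie outside annotated UTRs, 8 are shown with 10 bases on either side, on the strand of the gene, with the motif in capitals, to let their position and surroundings be compared. The copy of eIF3c, 220 bp upstream of an unbound gene, and the 7 copies next to or within UTRs are not shown.
eEF1gamma, chr3R:29220121-29220148, plus strand, 41 bp upstream, bound: gcctaggaaaTATCGATAtatcgccgta
eIF1A, chr3R:18274453-18274480, plus strand, 202 bp upstream, bound: tgatgatagaTATCGATAgctttagcgg
eEF1delta, chr2L:10232468-10232495, plus strand, 29 bp upstream, unbound: atggcgtagaTATCGATAtacctgcatt
eIF2gamma, chr3R:15263518-15263545, minus strand, 77 bp upstream, unbound: ggcggcactcTATCGATAcgcatcgcag
eIF3a, chr3R:4433916-4433943, minus strand, 38 bp upstream, unbound: cggcctgaacTATCGATAacgcagccag
eIF3l, chr3L:12146098-12146125, minus strand, 18 bp upstream, unbound: gtagtatcatTATCGATAgttggtcaca
eIF4A, chr2L:5981702-5981729, plus strand, 52 bp upstream, unbound: gcgatcgatcTATCGATAgtcgctaatg
eIF4B, chr3L:27858273-27858300, minus strand, 19 bp upstream, unbound: ccgaaataaaTATCGATAacgatatagg
At eEF1gamma the centre of the motif was 44 bp from the summit, and at eIF1A it was 1138 bp from it. In the window of 50 bases on either side of the summit, 2 of 15 members (eEF1gamma and eIF1) held TATCGATA, against 0.546% of all conservative summits. The eIF1 summit lay 47 bp from the start site of RpL28, and the promoter window of eIF1 itself lacked the motif. All 6776 summits count in that background, also those far from any start site, so the shares are not like for like.

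Among genes that work with these factors, a list of 53 symbols for other translation factors, regulators and mitochondrial factors matched 45 genes, none of them a member. In the conservative list 20 of the 45 (44.4%) were bound, where 23.1% of all genes were. Single replicates gave fewer, with 11 (24.4%) in replicate 1 and 14 (31.1%) in replicate 2, where 15.8% and 19.3% of all genes were bound. This list was chosen with earlier results known, and the difference was not tested. The partners of the eIF4 factors included pAbp, the poly(A)-binding protein that contacts eIF4G, at 215.9 and Pdcd4, an inhibitor of eIF4A, at 165.7. PEK, a kinase that phosphorylates eIF2alpha, had 237 at 350 bp upstream, and Thor, the eIF4E-binding repressor, had 63.6 at 244 bp upstream. Dph1 and Dph2, needed for the diphthamide residue of eEF2, had 242 and 117.4. The release factor genes eRF1 and eRF3 had 79.9 and 52.4, the recycling factor gene pix had 61.95, and eEFSec, for selenocysteine, had 132.9. The other bound genes were Paip2 (88.9), NAT1 (59.5), raptor (88.8), crc (57.2), Fmr1 (36.1), RpS6 (78.2), larp (155.7), bel (59.1), Rack1 (132.4) and mIF2 (113.7). As at eIF4EHP, 2 of the unbound genes had peaks at the highest score of 1000 that were absent from the conservative list. Lk6, a kinase for eIF4E, had a ranked-list peak of 885 at a distance of 970 bp, with 411 in replicate 1 and 410.02 in replicate 2. At nero, needed with Dhps for the hypusine of eEF5, the ranked-list peak was 165.7 at a distance of 958 bp. It gave 58.5 in replicate 1 and 96.97 in replicate 2. At larp, a bound gene, a higher ranked-list peak of 813 at 339 bp, also with a score of 1000, was absent from the conservative list. The highest ranked peaks at larp were 367 in replicate 1 and 420 in replicate 2. Putting such peaks back gave 22 bound genes of the 45 (48.9%). Among the other unbound genes, S6k had a ranked-list peak of 48.3 with a score of 723 and Dhps one of 34.8 with a score of 247, and Gcn2, the other eIF2alpha kinase, had none.

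Set beside similar gene groups, the share bound was 15 of 51 (29.4%) for the translation factor genes. It was 58 of 92 (63.0%) for cytoplasmic ribosomal protein genes, 7 of 35 (20.0%) for aminoacyl-tRNA synthetase genes and 20 of 73 (27.4%) for mitochondrial ribosomal protein genes. The median distance of the highest summit from the start site was 105 bp at the translation factor genes, 26 bp at the ribosomal protein genes, 160 bp at the synthetase genes and 291.5 bp at the mitochondrial ones. TATCGATA was in 27.5% of the translation factor windows, 30.4% of the ribosomal protein, 14.3% of the synthetase and 20.5% of the mitochondrial windows. No difference between these groups was tested.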

How the data were processed

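The deposited data are 8 peak lists on dm6 from 2 ChIP-seq libraries. Per the text deposited with the samples, the authors called peaks with a control alignment and gave each an IDR, for each replicate and for both together. No source used here names the aligner or the caller. Each peak's signal is the authors' deposited value. The deposited score is a whole number that grows with the log of 1/IDR up to 1000, and the lowest score that met an IDR of 0.01 was 830. Depth is unknown and no coverage was analysed. Fragments were 200 to 800 bp long, per the labels.

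Summits were placed on Ensembl release 115 and the Release 6 assembly with Python 3.11.15 and numpy 2.4.6. All peaks on the 6 main arms end within that assembly. The ranked list of the conservative pair is the one that holds every conservative peak. The summit search was tested on simulated data.

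Members, lists and motifs were chosen with earlier results of these data known. All members are accounted for, and the 8 bound members with the highest signal were to have their sequence shown. The window of eIF6 is not shown here. No p-value was computed, since there is 1 group with 2 replicates. Alternatives covered the list, each replicate alone, distance limits, start sites, overlap, peak height and gene assignment.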

Additional observations from a re-analysis of the deposited data

How the results depend on the processing

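The 15 bound members (23.1% of all genes) became 18 in the other series-level list (23.6%), 13 at 500 bp (19.3%) and 17 at 2000 bp (28.7%). They were 15 with the outermost 5′ end only (21.0%), 15 where any base of the peak counted (24.1%), 12 with peaks at or above the median signal (13.9%) and 13 for the nearest gene alone (18.1%). From single replicates the count was 11 (15.8%) to 16 (19.3%). With the 181 left-out peaks put back, an alternative chosen after seeing the data, it was 17 (23.7%). The median percentile of signal, 64.0, ran from 45.9 to 62.0 in single replicates. The median position was 3 bp upstream, and from -68.5 to 2 bp in single replicates. At 2000 bp it was 104 bp upstream, a value of -104. In the other series-level list eIF2B had 2 bound genes and eIF3 had 3. At 500 bp the scanning factors had 1 and eIF2B 0, and at 2000 bp eIF3 had 3. Single replicates gave 2 to 3 for eIF3, 0 to 1 for the eIF4E family and 1 for the eIF4A, eIF4B, eIF4G and eIF4H genes. They gave 1 to 2 for the scanning factors and 1 to 2 for eIF2 with eIF2A and eIF2D. Only eIF2D and eIF2A were bound in that last group, and no gene of an eIF2 subunit was. Summit windows of the 15 bound members were also searched in place of the promoter windows of all 51. TATAAA was in 6.67% of them, TATCGATA in 13.3%, CACGTG in 0%, CACCTG in 0% and AAAAAA in 33.3%. Over all 6776 conservative summits, also those far from any start site, the shares were 16.8%, 0.546%, 1.03%, 3.28% and 32.1%, in the same order. Summit windows are shorter than promoter windows and come from fewer members, so summit and promoter shares are not like for like. The cause of these shifts was not tested. No paired analysis was possible because there is 1 group. Depth is unknown, so an absent peak is not shown to be absent binding.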
